A study of Mus musculus with 10 samples.

Results

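The nuclear genes of respiratory complexes II, III, IV and V, with cytochrome c, were followed in hearts and in cultured macrophages of the mouse. A gene was taken when its symbol was Sdha, Sdhb, Sdhc, Sdhd, Cyc1 or Cycs, or began with Uqcr, Cox4, Cox5, Cox6, Cox7, Cox8 or Atp5, when it was annotated as protein-coding, and when it stood in both count tables. This gave 50 genes of 55357: 4 of complex II, 9 of complex III, cytochrome c itself, 18 of complex IV and 18 of complex V. The rule uses names alone and no measured value, but it was set with earlier results of these data known. From its matches 8 named pseudogenes were left out.

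RNA with poly(A) tails was sequenced from 10 libraries. The hearts came from male Cd163-/- mice on a C57BL/6 background, given recombinant mouse IL-10 (n = 3) or saline (n = 3). CD163 is a scavenger receptor of macrophages, and IL-10 is an anti-inflammatory cytokine. The design text gives 12 subcutaneous IL-10 injections of 50 µg/kg/day between day 0 and day 27 after transverse aortic constriction, an operation at 8 weeks of age that narrows the aorta and loads the left ventricle with pressure. The heart labels themselves give tissue, genotype and treatment but not the surgery or the day of collection. All 6 hearts are labelled Cd163-/-, and no wild-type or sham-operated heart was analysed here. The macrophages were thioglycolate-elicited peritoneal cells, kept if they adhered, from Cd163-/- (n = 2) or wild-type (n = 2) mice, and all 4 cultures received dexamethasone, a glucocorticoid drug, at 100 nM for 48 h. The labels do not say whether the libraries of a group are separate animals or separate cultures. The p-values therefore reflect the spread among these libraries alone, and that spread could be technical.

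Complexes II, III and IV carry electrons from succinate and ubiquinol, by way of cytochrome c, to oxygen, and complexes III and IV pump protons across the inner mitochondrial membrane. Complex V, the ATP synthase, lets the protons back and makes ATP. Complex II is wholly nuclear-encoded, whereas complexes III, IV and V combine nuclear subunits with a few encoded in mitochondrial DNA. Heart muscle is among the tissues richest in these proteins. Complex IV, cytochrome c oxidase, has subunits with tissue isoforms encoded by separate genes: Cox6a2, Cox7a1 and Cox8b are the isoforms of heart and skeletal muscle, and Cox6a1, Cox7a2 and Cox8a are their ubiquitous counterparts.

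The libraries held 13.5 to 14.9 M counts (M, mega) in hearts and 16.7 to 18.6 M in macrophages, of which mitochondrially encoded genes took 33.7% to 39.4% and 2.43% to 3.12%. Cd163 had 9 and 14 counts in Cd163-/- macrophages and 352 and 205 in wild-type macrophages, and 34 to 43 counts in IL-10 hearts and 45 to 57 in saline hearts, so the hearts' genotype is taken from the labels. Summed cardiomyocyte markers (Myh6, Actn2, Tnnt2, Tnni3, Ryr2, Mb, Pln and Ttn) stood at 28290 to 31490 CPM in IL-10 hearts and 24820 to 29620 CPM in saline hearts, where CPM is counts per M counts of TMM-scaled library size. Of 6 fast skeletal muscle markers Myh4, Myh1 and Tnnc2 were at 0 in every heart, Tnni2 and Atp2a1 stood between 0.138 and 0.878 CPM in each, and Tnnt3 had 0.483, 0.147 and 0 CPM in IL-10 hearts and 1.24, 1.31 and 4.17 CPM in saline hearts, a fall by edgeR (log2 -3.37 ± 0.70, adjusted p = 0.00467). Summed macrophage markers (Adgre1, Csf1r, Cd68, Lyz2, Itgam and Mrc1) stood at 21060 to 21850 CPM in Cd163-/- macrophages and 23430 to 27940 CPM in wild-type macrophages.

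Per exon length, the 50 genes were a large part of the hearts' nuclear transcripts and a small part of the macrophages'. On the TPM scale, which divides counts by exon length and brings the sum over all nuclear genes to the same value in each library, they held 6.36% ± 0.45 of IL-10 hearts and 5.15% ± 0.39 of saline hearts (SD, n = 3 each). In macrophages they held 0.824% and 0.729% in Cd163-/- cultures and 0.746% and 0.779% in wild-type cultures. Complex IV was the largest contributor in hearts, with 2.69% ± 0.27 in IL-10 hearts and 2.15% ± 0.20 in saline hearts (SD, n = 3 each). Complex II was the smallest of the complexes, with 0.412% ± 0.018 in IL-10 hearts and 0.337% ± 0.024 in saline hearts (SD, n = 3 each). The order depends on the division by exon length. By nuclear counts alone complex V was largest, at 1.92% in IL-10 hearts and 1.57% in saline hearts. Complex IV then held 0.857% in IL-10 hearts and 0.682% in saline hearts.

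The order of the genes by TPM differed between the tissues. Cox6a2 had the highest level in hearts, with a mean of 10628 TPM in IL-10 hearts and 8640 TPM in saline hearts. The ATP synthase subunits Atp5a1 (alpha), Atp5b (beta) and Atp5c1 (gamma) followed in both heart groups, at 4085, 3309 and 3124 TPM in IL-10 hearts and 3226, 2760 and 2591 TPM in saline hearts. In macrophages Cox8a was highest, at 795 TPM in Cd163-/- and 829 TPM in wild-type cultures, and Cox6a2 was at 13.3 TPM in Cd163-/- and 14.5 TPM in wild-type cultures. Most genes were several times higher in hearts, including the ubiquitous isoform Cox7a2, but the ubiquitous isoforms Cox8a and Cox6a1 were not. Cox7a2 stood at 1080 TPM in IL-10 hearts and 934 TPM in saline hearts, against 141 TPM in Cd163-/- and 178 TPM in wild-type macrophages. Cox8a stood at 801 TPM in IL-10 hearts and 818 TPM in saline hearts, and Cox6a1 at 416 TPM in IL-10 hearts and 548 TPM in saline hearts, against 542 TPM in Cd163-/- and 519 TPM in wild-type macrophages. These are levels from separately deposited tables, and levels of different genes also depend on the annotated exon length and on how reads shared with pseudogene copies were counted, which is not given in the sources used here.

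The first comparison was IL-10 against saline in Cd163-/- hearts. Most of the genes were higher in IL-10 hearts by a modest amount. Of 46 genes with enough counts to test, 13 rose and 1 fell at an adjusted p under 0.05, where 6.86% of all 13718 tested genes rose and 6.70% fell. These calls and the adjusted p-values given for single genes are edgeR's unless another tool is named. DESeq2 called 10 further rises, those of Sdha, Cox7b, Cox7c and 7 genes of complex V, and limma-voom called Cox7b and Atp5a1 of these. By log2 fold change 45 of the 46 were higher, and 43 were under upper-quartile scaling or under size alone, where 12 rose. Their median log2 fold change was 0.31, against -0.008 over all tested genes. In 25 of the 46 every IL-10 heart was above every saline heart, an arrangement that 15.7% of all tested genes showed, and in 1 every IL-10 heart was below, as in 15.8% of all tested genes. In whole-heart RNA, fewer cells of a type and less RNA per cell cannot be told apart.

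**Figure D1:**
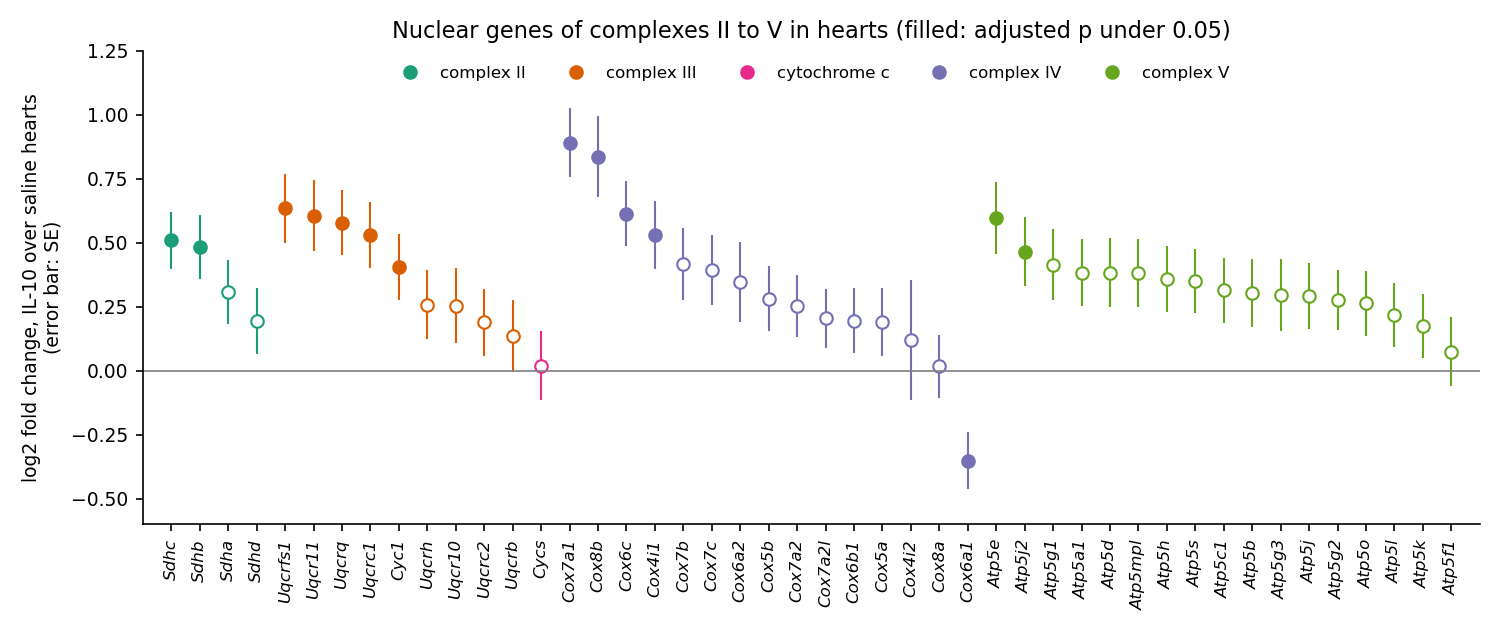
Log2 fold change of the 46 tested genes in IL-10 over saline hearts (y axis, error bars SE, 3 hearts per group), ordered within each complex, with filled points for adjusted p under 0.05. Points lie above 0 for 45 genes under TMM scaling (43 under upper-quartile scaling or size alone), Cox7a1 and Cox8b are highest at 0.89 and 0.84, and Cox6a1 is lowest at -0.35.

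The count depended on single hearts. Leaving out 1 heart gave between 6 and 25 rises. There were 6 when IL-10 replicate 2 was absent, 6 when saline replicate 1 was, and 25 when IL-10 replicate 3 was. The rises over all tested genes moved as well. They were 941 of 13718 with every heart, and 450 of 14084, 451 of 13970 and 1082 of 14066 in these fits, in that order. Relative to its mean over the 6 hearts, the median gene stood at log2 0.18, 0.32 and -0.02 in the 3 IL-10 hearts and at -0.21, -0.04 and -0.27 in the 3 saline hearts, so IL-10 replicate 3 lay close to saline replicate 2. Cox7a1, Cox8b, Cox6c, Uqcrfs1 and Sdhc were called with any 1 heart left out. The other 9 calls were lost without at least 1 heart.

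Complex II, succinate dehydrogenase, links the citric acid cycle to the chain. Of its 4 genes 2 rose, where 6.86% of all tested genes did. Sdhc, a membrane anchor subunit, had 322.0, 305 and 282 CPM in IL-10 hearts and 213, 222 and 202 CPM in saline hearts, a log2 fold change of 0.51 ± 0.11 (SE) with an adjusted p of 0.00651. Sdhb, the iron-sulfur subunit, had 663, 715 and 550 CPM in IL-10 hearts and 448, 481 and 450.3 CPM in saline hearts (log2 0.48 ± 0.13, adjusted p = 0.0178). In both genes the lowest IL-10 heart was above the highest saline heart, and Sdhb lost its call without either of IL-10 replicates 1 and 2 or either of saline replicates 1 and 3 (adjusted p up to 0.102). Sdha, the flavoprotein with the succinate site, had 710.1, 823 and 734 CPM in IL-10 hearts and 594, 681 and 557 CPM in saline hearts, without overlap, but its log2 difference of 0.31 ± 0.13 did not pass with edgeR (adjusted p = 0.118) or limma-voom (0.0897), while it passed with DESeq2 (0.0467). The other membrane anchor, Sdhd, had 442, 451 and 362 CPM in IL-10 hearts and 352, 414 and 331 CPM in saline hearts, with overlapping groups (log2 0.20 ± 0.13, adjusted p = 0.348).

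In complex III, which passes electrons from ubiquinol to cytochrome c, 5 of 9 genes rose, where 6.86% of all tested genes did. The other 4 were higher without passing. Uqcrfs1, the Rieske iron-sulfur protein, had 665, 649.7 and 497 CPM in IL-10 hearts and 368, 425 and 373 CPM in saline hearts (log2 0.64 ± 0.13, adjusted p = 0.00502). Cyc1, cytochrome c1, had 496, 459 and 376 CPM in IL-10 hearts and 309.8, 363 and 331 CPM in saline hearts (log2 0.41 ± 0.13, adjusted p = 0.045). The groups did not overlap in either gene, and Cyc1 lost its call in 4 of the 6 fits with 1 heart left out (adjusted p up to 0.179), those lacking IL-10 replicate 1 or 2 or saline replicate 1 or 3, and under upper-quartile scaling or size alone (adjusted p = 0.075 and 0.1). Uqcrc1, a core subunit, had 691, 589 and 534 CPM in IL-10 hearts and 389, 453 and 414 CPM in saline hearts (log2 0.53 ± 0.13, adjusted p = 0.0115).

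The small subunits of complex III split between rises and values that did not pass. Uqcrq had 445, 492 and 373 CPM in IL-10 hearts and 271, 316 and 289 CPM in saline hearts (log2 0.58 ± 0.13, adjusted p = 0.00678). Uqcr11 had 151, 195 and 129.6 CPM in IL-10 hearts and 93.9, 114 and 103.5 CPM in saline hearts (log2 0.61 ± 0.14, adjusted p = 0.00878). Both were higher in every IL-10 heart. Uqcrq lost its call without IL-10 replicate 2, Uqcr11 without IL-10 replicate 2 or saline replicate 1, and Uqcrc1 without IL-10 replicate 1 or saline replicate 1 (adjusted p up to 0.0521, 0.0703 and 0.0696). The log2 fold changes of Uqcrb, Uqcrc2, Uqcr10 and Uqcrh lay between 0.14 and 0.26, with overlapping groups.

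Cytochrome c, the mobile carrier between complexes III and IV and also a trigger of apoptosis when released, did not share the rise. Cycs had 697, 874 and 684 CPM in IL-10 hearts and 759, 808 and 657 CPM in saline hearts, a log2 fold change of 0.02 ± 0.14 (adjusted p = 0.943) whose sign flipped with upper-quartile scaling or size alone. The groups overlapped, with the lowest value in a saline heart and the highest in an IL-10 heart.

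Complex IV held both the largest rises and the only fall. Of its 15 tested genes 4 rose, Cox7a1, Cox8b, Cox6c and Cox4i1, and Cox6a1 fell, where 6.86% of all tested genes rose and 6.70% fell. Cox4i1, the ubiquitous form of the largest nuclear subunit, had 875, 825 and 670.2 CPM in IL-10 hearts and 491, 598 and 552 CPM in saline hearts (log2 0.53 ± 0.13, adjusted p = 0.0148). Cox6c, a small subunit without a tissue isoform, had 374, 455 and 344 CPM in IL-10 hearts and 249, 272 and 245 CPM in saline hearts (log2 0.61 ± 0.13, adjusted p = 0.0043). Neither pair of groups overlapped, and Cox4i1 lost its call without IL-10 replicate 1 or 2 or saline replicate 1 (adjusted p up to 0.0921). Exons of Cox4i1 overlap Emc8, and those of Cox6c overlap Vps13b, on the other strand, and reads of a library that does not mark strand cannot be told apart there. Cox7a2l had 231, 213 and 189 CPM in IL-10 hearts and 167, 192 and 190.4 CPM in saline hearts, with overlap (log2 0.21 ± 0.12, adjusted p = 0.267). Cox5a, Cox5b, Cox6b1, Cox7b and Cox7c had log2 fold changes between 0.19 and 0.42, none of which passed with edgeR. Cox7b (edgeR adjusted p = 0.0571) passed with DESeq2 and limma-voom (adjusted p = 0.0215 and 0.0487), and Cox7c (edgeR adjusted p = 0.069) with DESeq2 (adjusted p = 0.0326).

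The muscle isoforms of complex IV were higher in IL-10 hearts, though Cox6a2 did not pass, while their ubiquitous counterparts were not uniformly so. Cox7a1 (chromosome 7, 30184144 to 30186078, ENSMUSG00000074218) had 142, 150.3 and 108 CPM in IL-10 hearts and 69.4, 81.9 and 64.5 CPM in saline hearts. All 3 IL-10 hearts were above all 3 saline hearts, by a log2 fold change of 0.89 ± 0.14 (fold 1.85, adjusted p = 0.000532), the largest among the tested genes of these complexes. Its counterpart Cox7a2 (chromosome 9, 79755361 to 79759878, ENSMUSG00000032330) had 212, 258 and 201 CPM in IL-10 hearts and 173, 198 and 191 CPM in saline hearts, also without overlap but without passing (log2 0.26 ± 0.12, adjusted p = 0.18). Positions are those of GENCODE M21 on GRCm38.

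Cox8b (chromosome 7, 140898945 to 140900446, ENSMUSG00000025488) had 159.8, 203 and 124 CPM in IL-10 hearts and 82.9, 109 and 81.2 CPM in saline hearts. Every IL-10 heart was higher, by a log2 fold change of 0.84 ± 0.16 (fold 1.78, adjusted p = 0.00261). Cox8a (chromosome 19, 7215153 to 7217616, ENSMUSG00000035885) had 100.2, 130.4 and 96.0 CPM in IL-10 hearts and 102, 107 and 114 CPM in saline hearts. The groups overlapped, and the log2 fold change of 0.02 ± 0.12 (adjusted p = 0.947) turned negative with upper-quartile scaling or size alone.

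Cox6a2 (chromosome 7, 128205435 to 128206387, ENSMUSG00000030785) had 1426, 1921 and 1413 CPM in IL-10 hearts and 1326, 1383 and 1033 CPM in saline hearts. The groups did not overlap, but the gap was small beside the spread, and the log2 fold change of 0.35 ± 0.16 did not pass (adjusted p = 0.151). Its exons overlap Itgad on the other strand by 70 bases. Cox6a1 (chromosome 5, 115345642 to 115348981, ENSMUSG00000041697) had 64.8, 70.07 and 57.3 CPM in IL-10 hearts and 82.2, 76.4 and 86.4 CPM in saline hearts. Every IL-10 heart was below every saline heart, and the log2 fold change was -0.35 ± 0.11 (fold 0.784, adjusted p = 0.045). This call held with saline replicate 2 left out and was lost with any other heart left out (adjusted p up to 0.154).

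**Figure D2:**
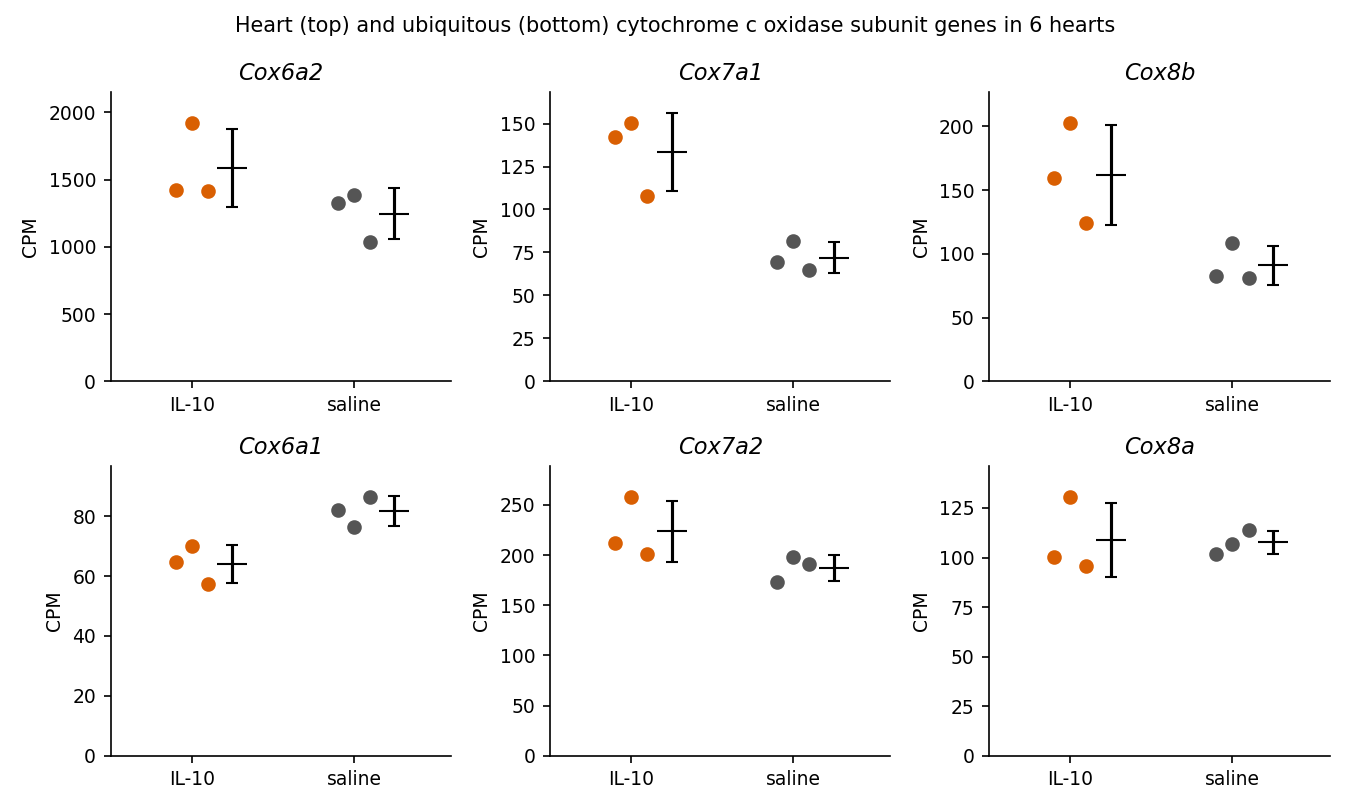
CPM (y axis, from 0) of 6 cytochrome c oxidase genes in 3 IL-10 hearts and 3 saline hearts, muscle isoforms on top and ubiquitous ones below, with the mean and SD beside each group's points. Cox7a1 and Cox8b are higher in all IL-10 hearts, Cox6a1 is lower in all of them, and Cox8a overlaps.

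The ratio of the 2 isoforms within a library needs no scaling between libraries. As a share of the pair's counts per exon length, Cox6a2 made up 95.8%, 96.6% and 96.2% in IL-10 hearts and 94.3%, 94.9% and 92.5% in saline hearts. Cox7a1 made up 54.2%, 50.7% and 48.6% of its pair in IL-10 hearts and 41.5%, 42.2% and 37.3% in saline hearts. Cox8b made up 73.3%, 72.8% and 69.0% in IL-10 hearts and 58.3%, 63.6% and 55.1% in saline hearts. In all 3 pairs the muscle isoform's share was higher in every IL-10 heart than in any saline heart. On this measure Cox7a1 was the smaller part of its pair in IL-10 replicate 3 and in every saline heart. That order depends on the length used. Per length of each gene's annotated principal transcript, Cox7a1 made up 52.9%, 49.4% and 47.3% in IL-10 hearts. By counts alone it made up 40.1%, 36.8% and 34.9% there.

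The log2 ratio of Cox6a2 to Cox6a1 was 0.70 ± 0.20 (SE) higher in IL-10 hearts than in saline hearts. The ratio of Cox7a1 to Cox7a2 was 0.63 ± 0.13 higher, and that of Cox8b to Cox8a 0.82 ± 0.18 higher. Each gave p = 0.1 in an exact two-sided permutation test, the smallest that 3 hearts against 3 allow, and 0.1667 adjusted over 5 pairs, so the design could not reach 0.05. The other pairs overlapped between the groups. Cox4i2, an isoform known from lung, had 101, 58 and 69 counts in IL-10 hearts and 69, 57 and 87 in saline hearts, at most 1.98% of its pair with Cox4i1 per exon length. Cox6b2, known from testis, had 1 to 4 counts in IL-10 hearts and 3 to 11 in saline hearts.

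**Figure D3:**
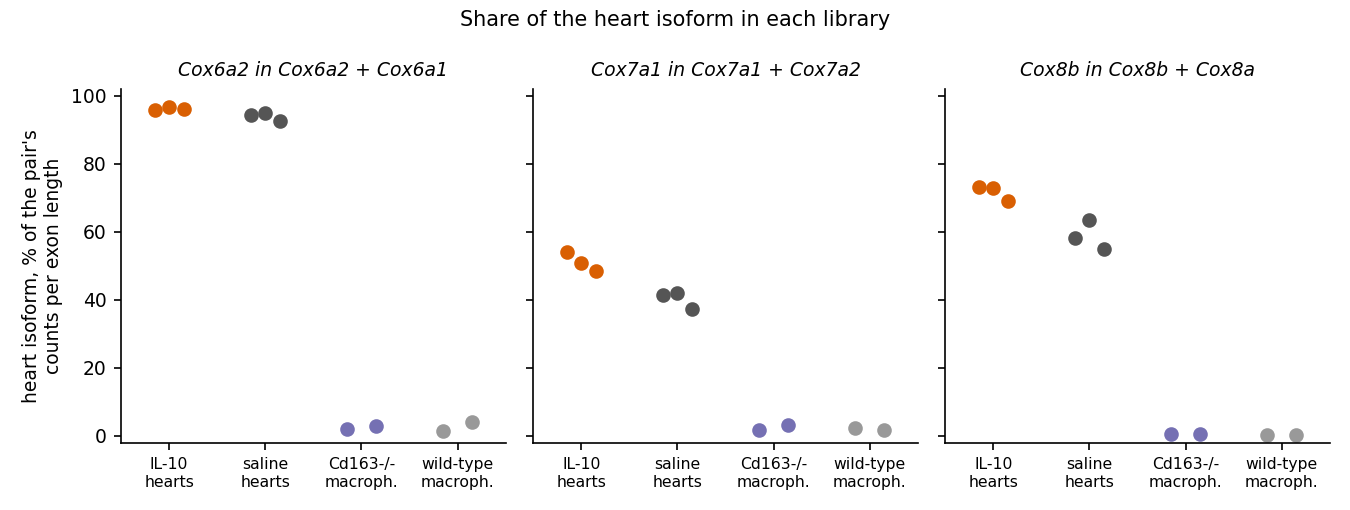
Share of the muscle isoform in each of 3 isoform pairs (y axis, percent of the pair's counts per exon length), 1 point per library, for IL-10 hearts, saline hearts, Cd163-/- macrophages and wild-type macrophages. IL-10 hearts lie above saline hearts in each pair, and all macrophage libraries lie at or under 4.04%.

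Promoter windows of 250 bases before to 50 after the RefSeq start (GRCm38.p6) were matched for 37 of the 50 genes, and Cox6a2 has no entry. They were searched on both strands for the letters GCGCATGCG (NRF1), CCGGAAG (GABPA), AAGGTCA (estrogen-related receptors) and AAGATGGCG (YY1), motifs of factors known for respiratory genes, of which the NRF1 letters can match both strands at overlapping places. The NRF1 letters stood in 7 of 37 genes (18.9%), against 1.95% of all 27025 genes with a window, and the GABPA letters in 12 of 37 (32.4%), against 9.93%. Those of estrogen-related receptors stood in 5 of 37, against 5.38% of all genes with a window, and those of YY1 in 2 of 37, against 1.64%. The windows of the muscle isoforms Cox7a1 and Cox8b held none of the 4, nor did that of Cox7a2, while Cox6a1 held NRF1 and GABPA letters and Cox8a GABPA letters in 2 places. The windows of these isoforms are shown because the genes moved differently in the hearts, with motif letters in capitals as they read on the gene's strand, 5′ to 3′:
Cox7a1 (chr7:30183921-30184220, + strand): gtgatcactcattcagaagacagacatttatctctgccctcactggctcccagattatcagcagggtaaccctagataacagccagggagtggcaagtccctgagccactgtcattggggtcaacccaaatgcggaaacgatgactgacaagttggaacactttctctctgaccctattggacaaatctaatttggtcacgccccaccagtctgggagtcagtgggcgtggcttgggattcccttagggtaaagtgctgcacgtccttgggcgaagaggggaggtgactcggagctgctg
Cox8b (chr7:140900397-140900696, - strand): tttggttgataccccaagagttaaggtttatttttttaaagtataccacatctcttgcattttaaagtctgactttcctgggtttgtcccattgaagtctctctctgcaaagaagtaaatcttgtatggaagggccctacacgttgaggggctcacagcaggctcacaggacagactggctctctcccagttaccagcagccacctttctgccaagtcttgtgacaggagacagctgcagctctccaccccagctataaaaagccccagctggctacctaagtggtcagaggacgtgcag
Cox6a1 (chr5:115348909-115349208, - strand): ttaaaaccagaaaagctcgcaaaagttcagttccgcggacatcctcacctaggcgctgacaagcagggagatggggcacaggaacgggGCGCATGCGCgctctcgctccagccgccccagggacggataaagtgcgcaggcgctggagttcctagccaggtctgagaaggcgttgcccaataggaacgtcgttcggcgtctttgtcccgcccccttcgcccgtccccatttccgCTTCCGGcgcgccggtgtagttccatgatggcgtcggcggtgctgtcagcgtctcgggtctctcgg
Cox8a (chr19:7217567-7217866, - strand): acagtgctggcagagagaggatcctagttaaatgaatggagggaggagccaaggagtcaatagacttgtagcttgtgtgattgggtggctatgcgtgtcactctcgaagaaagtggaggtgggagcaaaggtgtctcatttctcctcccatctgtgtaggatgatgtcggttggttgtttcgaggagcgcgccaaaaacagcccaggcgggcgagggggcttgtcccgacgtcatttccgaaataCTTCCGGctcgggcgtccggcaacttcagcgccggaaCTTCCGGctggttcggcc
A match describes these letters and is neither a bound site nor a cause, and a window without a match says only that these letters are not in it. Of the genes that rose in IL-10 hearts, 8 had a window, and 2 of the 8 held NRF1 letters, against 5 of 27 other tested genes.

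Complex V followed the general shift with few calls by edgeR. All 17 of its tested genes were higher in IL-10 hearts under TMM scaling, by log2 0.08 to 0.60. Of the 17, 2 rose (11.8%), where 6.86% of all tested genes did. Atp5e, the epsilon subunit of the catalytic part, had 133, 143 and 97.6 CPM in IL-10 hearts and 73.5, 94.0 and 79.6 CPM in saline hearts (log2 0.60 ± 0.14, adjusted p = 0.00993). Atp5j2, subunit f of the membrane part, had 513, 663 and 483 CPM in IL-10 hearts and 405, 428 and 368 CPM in saline hearts (log2 0.47 ± 0.14, adjusted p = 0.0307). The groups did not overlap in either gene. Atp5e lost its call without IL-10 replicate 2 or saline replicate 1, and Atp5j2 also without saline replicate 3 (adjusted p up to 0.0742 and 0.18).

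The catalytic subunits of complex V were separated but not called. Atp5a1 averaged 2803 ± 190.3 CPM in IL-10 hearts and 2148 ± 152 CPM in saline hearts, and Atp5b averaged 3070 ± 209.7 CPM in IL-10 hearts and 2484 ± 152 CPM in saline hearts (SD, n = 3 each). Neither gene overlapped between the groups, and neither passed with edgeR (adjusted p = 0.0645 and 0.14), while both did with DESeq2 (adjusted p = 0.00361 and 0.0249) and Atp5a1 did with limma-voom (adjusted p = 0.0401). DESeq2 also called Atp5c1, Atp5d, Atp5g1, Atp5h and Atp5mpl (adjusted p = 0.0135 to 0.0442), which edgeR left at 0.0554 to 0.111. The 3 genes for the c-ring, Atp5g1, Atp5g2 and Atp5g3, had log2 fold changes of 0.42, 0.28 and 0.30, with only the first free of overlap. The smallest difference in the complex was that of Atp5f1, subunit b (log2 0.08 ± 0.13).

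The genes not tested in hearts were Cox6b2, Cox7b2, Cox8c and a second Atp5o identifier, a readthrough transcript. Cox7b2 had at most 4 counts in a heart. The readthrough had 0 counts in all 10 libraries, which sets no limit on its level, since all 530 of its exon bases overlap Atp5o or Donson on the same strand and reads there may have been left out or given to those genes. Cox8c also had 0 counts in all 10. At a floor of 3 counts, a count of 0 allows up to 0.201 to 0.222 per M counts in hearts and 0.161 to 0.179 in macrophages. These floors use the library size without TMM scaling, unlike the CPM values elsewhere.

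Around these complexes, none of the 6 mitochondrially encoded subunits of complexes III to V passed in the main fits with edgeR, DESeq2 or limma-voom. Without a filter on low counts 2 of the 6 rose. With the replicate number as a block 1 of the 6 rose, and 1 rose when IL-10 replicate 1 or saline replicate 2 was left out. With edgeR 2 of them, mt-Atp6 and mt-Co3, were higher at an unadjusted p under 0.05, a threshold that 14.1% of all tested genes met in each direction. mt-Co1 averaged 173100 CPM in IL-10 hearts and 163100 CPM in saline hearts (log2 0.09 ± 0.19, adjusted p = 0.804). Of 40 tested assembly factors 4 rose and none fell, a share near the 6.86% of all tested genes that rose: Tmem70 and Atpaf1, which act on complex V, Cox14 on complex IV and Sdhaf4 on complex II, with log2 fold changes of 0.50 to 0.54. With edgeR 7 assembly factors were higher and 1 was lower at an unadjusted p under 0.05, the threshold met by 14.1% in each direction. DESeq2 and limma-voom also called 4 rises and no fall. With 1 heart left out 1 to 6 rose. Tmem70 kept its call in each of these fits. Cox14 lost its call without IL-10 replicate 2 or saline replicate 1, Sdhaf4 also without IL-10 replicate 1, and Atpaf1 without IL-10 replicate 1 or 2 or saline replicate 1 or 3 (adjusted p up to 0.0789, 0.121 and 0.108), and with size alone neither Sdhaf4 nor Atpaf1 was called (adjusted p = 0.0633 and 0.0519).

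Of 19 transcriptional regulators 2 rose and none fell, again near the share of all genes, 6.86%, that rose. Perm1, a muscle regulator that acts with PGC-1 and estrogen-related receptors, had 319, 299 and 256 CPM in IL-10 hearts and 179, 235 and 219 CPM in saline hearts (log2 0.47 ± 0.13, adjusted p = 0.024). Esrrg, an estrogen-related receptor, had 39.1, 35.9 and 35.4 CPM in IL-10 hearts and 27.6, 32.3 and 24.2 CPM in saline hearts (log2 0.40 ± 0.12, adjusted p = 0.0435). Neither gene overlapped between the groups. Perm1 lost its call without IL-10 replicate 1 or 2 or saline replicate 1 and with size alone, and Esrrg also without saline replicate 3 and with upper-quartile scaling (adjusted p up to 0.14 and 0.166), so that 0 to 4 regulators rose with 1 heart left out. Esrra and Ppargc1a, which encodes the coactivator PGC-1 alpha, were higher without passing (log2 0.38 and 0.29, adjusted p = 0.065 and 0.207). Esrra passed without a filter or without IL-10 replicate 3 (adjusted p = 0.0214 and 0.026). DESeq2 and limma-voom also gave 2 rises and no fall. With edgeR 6 of the 19 were higher at an unadjusted p under 0.05 and 1, Gabpb1, was lower. Of all tested genes 14.1% met that threshold in each direction. The median log2 fold change of the 19 was 0.257, against -0.008 over all tested genes.

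Of 8 associated proteins 3 rose, where 6.86% of all genes did: the phosphate carrier Slc25a3, the adenine nucleotide carrier of heart and muscle Slc25a4, and Ndufa4, which copurifies with complex IV. Slc25a4 had 3829, 4196 and 3202 CPM in IL-10 hearts and 2538, 3059 and 2404 CPM in saline hearts (log2 0.49 ± 0.15, adjusted p = 0.0395). Its more widely expressed relative Slc25a5 had 269, 304 and 227 CPM in IL-10 hearts and 322, 362 and 349.9 CPM in saline hearts, lower in every IL-10 heart without passing by edgeR (log2 -0.37 ± 0.13, adjusted p = 0.0605), while it fell by DESeq2 and limma-voom (adjusted p = 0.0279 and 0.0457), by edgeR without a filter (0.0382) and with upper-quartile scaling or size alone (0.0339 and 0.0303). Slc25a3, Slc25a4 and Ndufa4 all lost their calls without IL-10 replicate 1 or 2 or saline replicate 1 or 3 (adjusted p up to 0.111, 0.164 and 0.119), and Slc25a4 with upper-quartile scaling or size alone (0.0615 and 0.0522). Between these carriers, as between Cox6a2 and Cox6a1, the muscle form was higher and the widely expressed form lower in every IL-10 heart, a resemblance noted after the values were seen.

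Markers of other cells moved in the same hearts. All 4 markers of dividing cells (Mki67, Top2a, Ccnb1 and Cdk1) fell, with a summed level of 6.24 to 8.01 CPM in IL-10 hearts and 37.4 to 51.2 CPM in saline hearts. All 5 red cell markers fell by edgeR, 4 of them by DESeq2 or without IL-10 replicate 2 (Hbb-bs adjusted p = 0.0708 and 0.051), with a sum of 300.4 to 548 CPM in IL-10 hearts and 582 to 1189 CPM in saline hearts. Of 6 fibroblast markers 2 fell, Col1a1 and Col3a1, and Dcn rose, with a sum of 1960 to 2422 CPM in IL-10 hearts and 2196 to 2534 CPM in saline hearts. Of 4 smooth muscle markers Acta2 fell (log2 -1.02 ± 0.15, adjusted p = 0.00049), and their sum was 68.3 to 94.6 CPM in IL-10 hearts and 125 to 197 CPM in saline hearts, without overlap. Most of that sum was Acta2, at 54.1 to 70.5 CPM in IL-10 hearts and 102 to 161 CPM in saline hearts. Myh11 did not fall (log2 0.09 ± 0.22), and Tagln was not tested. Cnn1 was lower without passing (log2 -1.22 ± 0.44, adjusted p = 0.0778), with 23.6 CPM in saline replicate 3. Of 5 endothelial markers Kdr fell (log2 -0.54 ± 0.17, adjusted p = 0.0488), with a sum of 413 to 501 CPM in IL-10 hearts and 479 to 594 CPM in saline hearts. Without passing, Pecam1 and Cdh5 were lower (log2 -0.30 and -0.20) and Tek and Tie1 were higher (log2 0.10 and 0.16). Of 6 macrophage markers Cd68 fell (log2 -0.61 ± 0.20, adjusted p = 0.0474), with a sum of 614 to 684 CPM in IL-10 hearts and 428 to 725 CPM in saline hearts. Without passing, Itgam was lower (log2 -0.38), and Adgre1, Csf1r, Lyz2 and Mrc1 were higher (log2 0.02 to 0.23). Neither Kdr nor Cd68 passed by limma-voom (adjusted p = 0.0626 and 0.0594). Kdr lost its call without IL-10 replicate 1 or 2 or saline replicate 2 or 3, Cd68 without IL-10 replicate 1 or 2 or saline replicate 1 or 3, and Dcn without any heart but IL-10 replicate 1 or saline replicate 2 (adjusted p up to 0.228, 0.26 and 0.104). No tested marker of mesothelium or neutrophils passed by edgeR, DESeq2 or limma-voom, with DESeq2 giving 1 mesothelial marker lower at an unadjusted p under 0.05, and no marker of T and B cells had enough counts to test. Of 8 cardiomyocyte markers only Mb, myoglobin, rose by edgeR (log2 0.51 ± 0.15, adjusted p = 0.0321), while 2 rose by DESeq2, which also called 1 fall, and 2 rose by limma-voom. Mb lost its call without IL-10 replicate 1 or 2 or saline replicate 1 or 3 (adjusted p up to 0.118). The part of these cells in the results was not tested. Brown fat also expresses Cox7a1 and Cox8b. Of 6 fat markers Ucp1 and Elovl3 had at most 1 count in any heart, Adipoq stood at 0 to 0.734 CPM, Plin1 at 0 to 0.351 CPM and Cidec at 0.0703 to 0.705 CPM over the 6 hearts, and Cidea, which the mouse heart also holds, averaged 24.6 CPM in IL-10 hearts and 24.6 CPM in saline hearts.

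The second comparison was Cd163-/- against wild-type macrophages, both under dexamethasone. The largest change was in cytochrome c, which fell to a fold of 0.467. Of 44 tested genes 3 fell, Cycs, Cyc1 and Cox7a2, a smaller share than the 13.3% of all 13861 tested genes that fell, and none rose, where 13.1% of all genes did. DESeq2 and limma-voom also gave no rise, with 4 falls by DESeq2, which added Atp5b (adjusted p = 0.0348, against 0.0902 by edgeR), and 3 by limma-voom. At an unadjusted p under 0.05, 7 of the 44 were lower and none was higher, where 20.2% of all genes were lower and 21.0% higher. In 25 of the 44 both Cd163-/- cultures were below both wild-type cultures, as in 34.1% of all genes, and in 3 both were above, as in 35.3%.

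**Figure D4:**
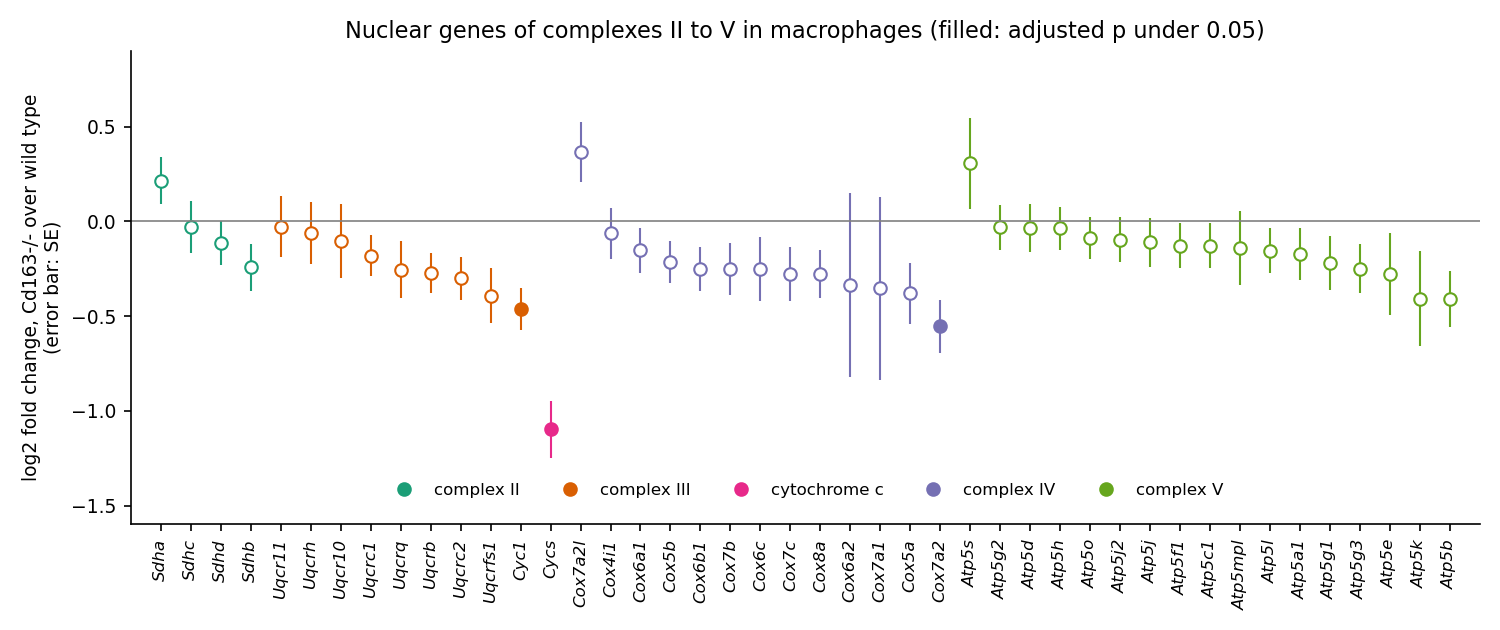
Log2 fold change of the 44 tested genes in Cd163-/- over wild-type macrophages (y axis, error bars SE, 2 cultures per group), ordered within each complex, with filled points for adjusted p under 0.05. Cycs is lowest at -1.10, and 41 of 44 points lie below 0 under TMM scaling but 30 under upper-quartile scaling and 23 under size alone.

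The small general difference depended on how libraries were scaled. The median log2 fold change of the 44 genes was -0.198 with TMM, where the median of all genes was 0.012, with 41 genes lower and 3 higher. With upper-quartile scaling the medians were -0.085 and 0.125, with 30 lower and 14 higher, and with size alone -0.021 and 0.188, with 23 lower and 21 higher. Relative to the median of all genes the 44 genes thus stood at -0.21 in each of these. Over all genes, called rises and falls were 1817 and 1846 with TMM, 2310 and 1403 with upper-quartile scaling, and 2665 and 1220 with size alone. With upper-quartile scaling and with size alone 1 of the 44 genes fell, Cycs.

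Cycs (chromosome 6, 50562563 to 50566538, ENSMUSG00000063694) had 55.9 and 64.0 CPM in Cd163-/- macrophages and 115 and 142 CPM in wild-type macrophages. Both Cd163-/- cultures were below both wild-type cultures, at a fold of 0.467 (log2 -1.10 ± 0.15, adjusted p = 0.00626). The call was lost without Cd163-/- replicate 1, where the adjusted p was 0.0704, and held with any other culture left out. The window of Cycs is shown because it fell most, with the NRF1 letters in capitals (RefSeq, GRCm38.p6, 5′ to 3′):
Cycs (chr6:50566520-50566819, - strand): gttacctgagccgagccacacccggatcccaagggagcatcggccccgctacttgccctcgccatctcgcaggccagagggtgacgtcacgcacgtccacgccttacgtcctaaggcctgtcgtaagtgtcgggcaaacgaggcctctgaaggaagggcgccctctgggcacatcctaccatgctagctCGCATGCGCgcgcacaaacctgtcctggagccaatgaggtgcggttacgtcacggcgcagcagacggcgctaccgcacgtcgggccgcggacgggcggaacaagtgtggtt

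Cyc1 had 39.2 and 38.0 CPM in Cd163-/- macrophages and 52.0 and 54.4 CPM in wild-type macrophages (log2 -0.46 ± 0.11, adjusted p = 0.0293). Cox7a2 had 38.6 and 32.2 CPM in Cd163-/- macrophages and 54.5 and 49.5 CPM in wild-type macrophages (log2 -0.56 ± 0.14, adjusted p = 0.0338). Neither gene overlapped between genotypes, and each kept its call with 1 of the 4 cultures left out and lost it with the others: Cyc1 without either Cd163-/- culture or wild-type replicate 2, Cox7a2 without either Cd163-/- culture or wild-type replicate 1 (adjusted p up to 0.147 and 0.163). Cyc1 was the 1 gene called in both comparisons, and it rose in IL-10 hearts and fell in Cd163-/- macrophages.

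The genes with positive log2 fold changes under TMM scaling were Cox7a2l, Atp5s and Sdha. Cox7a2l had 136 and 109 CPM in Cd163-/- macrophages and 103 and 87.5 CPM in wild-type macrophages, without overlap and without passing (log2 0.37 ± 0.16, adjusted p = 0.137). Sdha had 234 and 243 CPM in Cd163-/- macrophages and 214 and 197 CPM in wild-type macrophages (log2 0.22 ± 0.12, adjusted p = 0.243). Atp5s, which belongs to coupling factor B, had 4.43 and 4.06 CPM in Cd163-/- macrophages and 3.62 and 3.24 CPM in wild-type macrophages (log2 0.31 ± 0.24, adjusted p = 0.381). In all 3 both Cd163-/- cultures were above both wild-type cultures. The other genes of complex II had 60.5 and 51.8 CPM (Sdhb), 91.9 and 74.6 CPM (Sdhc) and 96.1 and 97.8 CPM (Sdhd) in Cd163-/- macrophages, and 68.3 and 64.6 (Sdhb), 85.3 and 84.7 (Sdhc) and 109.9 and 100.2 CPM (Sdhd) in wild-type macrophages, and none passed (adjusted p = 0.199, 0.89 and 0.49).

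**Figure D5:**
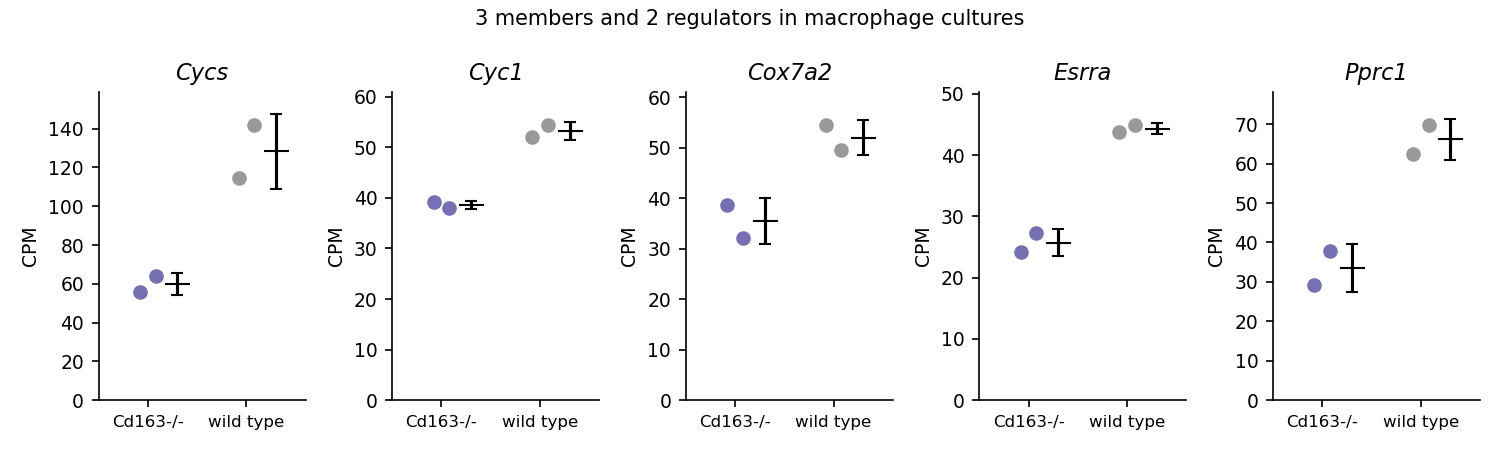
CPM (y axis, from 0) of Cycs, Cyc1 and Cox7a2 and of the regulators Esrra and Pprc1 in 2 Cd163-/- and 2 wild-type macrophage cultures, with the mean and SD beside each group's points. All 5 are lower in both Cd163-/- cultures, Cycs at 55.9 and 64.0 CPM against 115 and 142 CPM.

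Of 15 tested regulators of respiratory genes 5 fell and 2 rose in the Cd163-/- macrophages, where 13.3% of all tested genes fell and 13.1% rose. Esrra, the estrogen-related receptor alpha, had 24.2 and 27.3 CPM in Cd163-/- macrophages and 43.7 and 44.9 CPM in wild-type macrophages (log2 -0.79 ± 0.13, adjusted p = 0.0093). Pprc1, a coactivator related to PGC-1 alpha, had 29.2 and 37.8 CPM in Cd163-/- macrophages and 62.5 and 69.8 CPM in wild-type macrophages (log2 -0.98 ± 0.16, adjusted p = 0.0099). Both were lower in each Cd163-/- culture. Nrip1, a corepressor of estrogen-related receptors, and Perm1 fell as well (log2 -1.19 and -1.33), as did Ppargc1b, and Pparg and Rb1 rose (log2 1.07 and 0.52). Without Cd163-/- replicate 1 none of the 5 fell and only Pparg rose, and without Cd163-/- replicate 2 neither Pparg nor Rb1 rose and Perm1 did not fall. Perm1 and Rb1 also lost their calls without wild-type replicate 2 (adjusted p = 0.0509 and 0.0581).

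Of 40 assembly factors 3 fell, a smaller share than the 13.3% of all tested genes that fell: Hccs, the enzyme that attaches haem to cytochromes c and c1, Higd1a and Coa5, with log2 fold changes of -0.46 to -0.59. DESeq2 called 2 of the 3 and not Higd1a, and none of the 3 was called with upper-quartile scaling or size alone. Without either Cd163-/- culture or wild-type replicate 2 none fell, and without wild-type replicate 1 Higd1a did not (adjusted p = 0.0612). None rose in the main fits by edgeR, DESeq2 or limma-voom. With size alone 1 rose, and without a filter on low counts 1 rose and 6 fell. With edgeR 10 were lower and 1 was higher at an unadjusted p under 0.05, where 20.2% of all tested genes were lower and 21.0% higher. Hccs had 22.4 and 23.2 CPM in Cd163-/- macrophages and 31.7 and 35.2 CPM in wild-type macrophages (adjusted p = 0.0277). Cs, citrate synthase, was the 1 of 8 associated proteins to fall (log2 -0.42 ± 0.12, adjusted p = 0.0483), a call lost with upper-quartile scaling or size alone (adjusted p = 0.103 and 0.174) and without either Cd163-/- culture or wild-type replicate 2 (up to 0.216), and Ndufa4 did not pass (log2 -0.19 ± 0.14). None of 6 mitochondrially encoded subunits passed by any of the 3 tools, and none had an unadjusted p under 0.05, while 1 rose without wild-type replicate 1 and 1 fell without wild-type replicate 2.

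Markers of other cells differed between the cultures. Summed fibroblast markers stood at 2348 to 3296 CPM in Cd163-/- and 1129 to 1639 CPM in wild-type cultures, and 3 of 5 tested markers rose and 1 fell. Mesothelial markers summed to 163 to 208 CPM in Cd163-/- and 51.2 to 86.9 CPM in wild-type cultures, and 2 of 4 rose. Smooth muscle markers summed to 411 to 699 CPM in Cd163-/- and 173 to 221 CPM in wild-type cultures, and again 2 of 4 rose. Of the 6 macrophage markers Mrc1 rose and Adgre1 fell. S100a8, the 1 neutrophil marker tested, fell (log2 -2.58 ± 0.46, adjusted p = 0.013), at 2.74 and 2.17 CPM in Cd163-/- cultures and 8.56 and 20.9 CPM in wild-type cultures. Of 6 fast skeletal muscle markers Tnni2 and Myh1 rose (fold 4.61 and 5.13), with a sum of 5.18 and 7.67 CPM in Cd163-/- cultures and 1.604 and 1.14 CPM in wild-type cultures. None of 3 tested endothelial markers passed by edgeR, DESeq2 or limma-voom or had an unadjusted p under 0.05. Of 4 markers of dividing cells Mki67 fell, with log2 fold changes of -1.66 to -1.21 when 1 culture was left out. The sum was 136 to 223 CPM in Cd163-/- cultures and 270.2 to 283 CPM in wild-type cultures. The 4 did not move together. Their median log2 fold change was 0.521, and with edgeR 1 other was higher at an unadjusted p under 0.05. Without a filter on low counts 2 rose and 1 fell. Adgre1, S100a8, Tnni2, Myh1, Upk3b, Col1a1 and the fibroblast marker that fell, Pdgfra, lost their calls without either Cd163-/- culture, and Adgre1 also with size alone (adjusted p = 0.0545). Mrc1, Acta2 and Lrrn4 lost theirs without Cd163-/- replicate 1. Lum, Col3a1 and Cnn1 kept their calls with any 1 culture left out. The part of these cells in the falls of Cycs, Cyc1 and Cox7a2 was not tested.

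The muscle isoforms had few counts in macrophages. Cox6a2 had 40 and 51 counts in Cd163-/- cultures and 29 and 69 in wild-type cultures. Cox7a1 had 8 and 11 counts in Cd163-/- cultures and 13 and 8 in wild-type cultures, and Cox8b had 7 and 6 in Cd163-/- cultures and 5 and 5 in wild-type cultures. Cox4i2, Cox6b2 and Cox8b were too low to test there, as were Cox7b2, Cox8c and the Atp5o readthrough, which had 0 counts. Per exon length Cox6a2 made up 1.92% and 2.92% of its pair in Cd163-/- cultures and 1.49% and 4.04% in wild-type cultures, and Cox8b at most 0.455%. Between genotypes the log2 ratio of Cox6a2 to Cox6a1 differed by -0.06 ± 0.80 and that of Cox7a1 to Cox7a2 by 0.22 ± 0.48, both with overlap. That of Cox8b to Cox8a was 0.40 ± 0.14 higher in Cd163-/- cultures, with an exact permutation p of 0.3333, the smallest that 2 against 2 allow.

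Transcripts of cardiomyocyte markers were also present in the macrophage libraries, at 23.5 to 38.7 CPM in Cd163-/- and 33.2 to 48.6 CPM in wild-type cultures, and of 6 tested Ttn fell (log2 -1.82, adjusted p = 0.0171 by edgeR), a call lost without either Cd163-/- culture (adjusted p = 0.123 and 0.0648). Per 1000 cardiomyocyte marker counts there were 84.7 and 73.2 Cox6a2 counts in Cd163-/- cultures and 51.9 and 90.2 in wild-type cultures, and 41.6 to 61.01 in hearts. For Cox7a1 the values were 10.5 to 23.3 in macrophages and 2.60 to 4.77 in hearts. On this measure Cox6a2 overlapped between heart groups, at 46.8, 61.01 and 50.0 with IL-10 and 53.4, 46.7 and 41.6 with saline. Cox7a1 did not overlap, at 4.67, 4.77 and 3.80 with IL-10 and 2.80, 2.76 and 2.60 with saline. The part of cardiomyocyte transcripts in the macrophage counts of these genes was not tested.

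The isoform balance separated the tissues without overlap. The log2 ratio of Cox6a2 to Cox6a1 averaged 4.27 in the 6 hearts and -5.37 in the 4 macrophage libraries, a difference of 9.64 ± 0.37 (SE). The difference was 5.12 ± 0.26 for Cox7a1 to Cox7a2 and 8.83 ± 0.24 for Cox8b to Cox8a. Cox4i2 to Cox4i1 was also higher in hearts, by 3.71 ± 0.26, with 1 or 2 Cox4i2 counts per macrophage library, and Cox6b2 to Cox6b1 was lower in hearts, a difference of -2.66 ± 0.56, with 1 to 16 Cox6b2 counts per library. Hearts and macrophages did not overlap in any of the 5 ratios, each with an exact two-sided permutation p of 0.0095, the smallest possible, and 0.0095 adjusted over the 5. Tissue, culture, treatment and count table all differ between these sets and cannot be told apart.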

How the data were processed

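Poly(A) RNA libraries were prepared with the NEBNext Ultra kit, which does not mark strand, per the labels' protocols, whose text names livers as the source. HISAT2 2.2.1 and featureCounts made the gene counts that the authors deposited as 2 tables, per the submitters' processing notes, which list both GRCm39 and mm10 and do not say which of these the counts use. Values were whole counts. Of 55357 identifiers 52081 were named from GENCODE M21.

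Each table was fitted whole in R 4.3.3 with edgeR 4.0.16: filterByExpr (minimum count 10, minimum total 15), TMM, the quasi-likelihood test between groups, and Benjamini-Hochberg over all tested genes, with calls at an adjusted p under 0.05. SE was taken from the log2 fold change and the test's F. Isoform ratios are log2 of counts plus 0.5 within a library, tested by exact permutation (scipy 1.17.1) and adjusted over pairs. TPM used union exon length. Floors cover counting error only. Motifs were searched in RefSeq promoter windows. The fit was tested on simulated data.

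Members and lists were chosen with earlier results of these data known. Values per library are given for isoform pairs, Cox7a2l, complex II, Cyc1, Cycs, the 12 called members with the smallest p and the 3 largest and 3 smallest fold changes per comparison, and up to 4 genes per other list. Of 46 assembly factors 43 were matched. Alternatives were other scalings, filters, DESeq2 1.42.0, limma-voom (limma 3.58.1), the replicate number as a block, mitochondrial genes left out, and each library left out. With 1 macrophage library left out, its partner was taken to have the spread of the other genotype.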

Additional observations from a re-analysis of the deposited data

How the results depend on the processing

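The counts of these genes, the genes named from them, the called genes of the other lists and the isoform ratios were recomputed under the alternatives, while the TPM shares and motif counts were not. The median log2 fold change of the tested genes of complexes II to V stayed positive in hearts (0.248 to 0.413) and negative in macrophages (-0.254 to -0.021). In hearts the 13 rises became 20 without a filter and 23 with DESeq2, and all 13 were among them. Leaving out 1 heart gave 6 to 25 rises and 0 to 1 falls, where all tested genes gave 450 to 1082 rises and 447 to 1012 falls. In macrophages the 3 falls became 1 with upper-quartile scaling, 1 with size alone and 4 with DESeq2, and the median of -0.198 became -0.085 with upper-quartile scaling and -0.021 with size alone. The median of all tested genes was 0.012 with TMM, 0.125 with upper-quartile scaling and 0.188 with size alone. Leaving out 1 macrophage library gave 0 to 3 falls. Over all heart genes, called rises and falls were 941 and 919 with TMM, 716 and 1120 with upper-quartile scaling and 549 and 993 with size alone.

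Small log2 differences changed sign. In hearts Cox8a gave -0.032 with upper-quartile scaling and -0.053 with size alone, and Cycs -0.03 and -0.046. With 1 heart left out Cox8a ranged from -0.131 to 0.113, Cycs from -0.101 to 0.096 and Cox4i2 from -0.106 to 0.262. In macrophages upper-quartile scaling gave 0.084 for Sdhc and 0.049 for Cox4i1, and size alone gave 0.149 for Sdhc, 0.061 for Sdhd, 0.114 for Cox4i1 and 0.024 for Cox6a1. For mt-Co1 they gave 0.016 and 0.079. With 1 macrophage library left out Sdhc ranged from -0.186 to 0.102, Cox4i1 from -0.182 to 0.035 Cox6a2 from -0.866 to 0.476 and mt-Co1 from -0.255 to 0.075. The macrophage log2 ratios ranged from -0.793 to 0.675 for Cox6a2 to Cox6a1, from -0.209 to 0.648 for Cox7a1 to Cox7a2 and from -0.625 to 0.313 for Cox4i2 to Cox4i1. The cause of these changes was not tested.

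Replicate numbers share only a number: deviations of same-numbered libraries correlated at -0.179, 0.042 and 0.003 in hearts, and no pairing is stated. With the replicate number as a block, 15 genes rose and 0 fell in hearts (Cox6a1 adjusted p = 0.0813, Cyc1 0.0622 by edgeR, and of the other lists Esrrg 0.0576 and Kdr 0.0944), and 0 rose 0 rose and 2 fell in macrophages, where Coa5, Higd1a, Rb1, Cs and Adgre1 lost their calls (adjusted p = 0.0536 to 0.107). The macrophage numbers correlated at -0.113, and with the pairing crossed, a fit chosen after seeing the data, 0 rose and 3 fell. In macrophages the muscle isoforms rest on 5 to 69 counts per library, which limits their ratios.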
